A study of Mus musculus with 22 samples.

Results

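The expression of 10 genes of the blood vessel wall was examined in the mouse kidney after cisplatin, KW6002, or both. The genes were taken by symbol: 6 that mark endothelial cells or particular vessel beds (Pecam1, Cdh5, Kdr, Emcn, Ehd3, and Plvap) and 4 adhesion molecules that capture leukocytes (Selp, Sele, Icam1, and Vcam1). They are 10 of the 32858 genes counted, and all 10 were among the 17131 genes with enough counts to be tested.

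Endothelial cells line every vessel, and the kidney holds several kinds, from the fenestrated capillaries of the glomerulus to the peritubular capillaries and the draining veins. In an inflamed vessel, P-selectin and E-selectin, encoded by Selp and Sele, slow passing leukocytes by binding sugars on their surface, and ICAM-1 and VCAM-1 then hold them by binding leukocyte integrins. The junctional proteins PECAM-1 and VE-cadherin, encoded by Pecam1 and Cdh5, lie where leukocytes cross between the cells. ICAM-1 and VCAM-1 are also made by tubule cells and by cells around the vessels, and P-selectin is also stored in platelets.

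The mice were male C57Bl6/J animals aged 8 to 10 weeks, and each of the 22 gave 1 kidney library: 5 vehicle, 6 KW6002, 5 cisplatin, and 6 cisplatin plus KW6002, here called co-treated. Cisplatin, a platinum anticancer drug that injures the tubules, was injected at 3 mg/kg on 6 consecutive days, and kidneys were collected 72 hours after the last dose. KW6002 (istradefylline), an antagonist of the adenosine A2A receptor, was given at 3 mg/kg from day -5 to day 7, with the first cisplatin dose on day 0. The carrier of KW6002, made of DMSO, cremophor, and saline, was the vehicle. Only male mice and 1 time point were studied. The samples are whole kidney, in which fewer cells of a type and less RNA per cell cannot be told apart, and no value below can be assigned to a cell type.

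Totals ran from 26471762 to 40510754 counts per library. Values are counts scaled to a common library total (CPM) after TMM normalization, a scaling that assumes most genes keep their share of the library, and changes are log2 fold changes from edgeR's quasi-likelihood test with p adjusted over all genes by the Benjamini-Hochberg method. A gene is said to have risen or fallen at an adjusted p below 0.05. With scaling by library size only, the median over all genes would move to 0.20 for cisplatin against vehicle and to 0.16 for co-treated against vehicle, on the log2 scale, from -0.01 and -0.00. The sample labels give each library a number, taken here as a mouse number. A series in the 300s holds 3 vehicle and 3 KW6002 mice, and a series in the 500s holds all the others. What the numbers mark is not given in the sources used here, so several comparisons with control mice are also given for the 500s alone. Proximal tubule markers summed to 14032 to 15073 CPM in the vehicle kidneys, and all 27 further endothelial genes on a list had enough counts to be tested.

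The positions of the genes are those of GENCODE M21 on the mm10 build. Icam1 (ENSMUSG00000037405) lies at chr9:21015985-21028817 on the plus strand, and Vcam1 (ENSMUSG00000027962) at chr3:116109949-116129688 on the minus strand. Selp (ENSMUSG00000026580), at chr1:164115264-164150026, and Sele (ENSMUSG00000026582), at chr1:164048234-164057677, are neighbours on the plus strand. Pecam1 (ENSMUSG00000020717) lies at chr11:106654217-106750628, and Kdr (ENSMUSG00000062960) at chr5:75932827-75978458, both on the minus strand. Cdh5 (ENSMUSG00000031871) is at chr8:104101625-104144511 on the plus strand, and Plvap (ENSMUSG00000034845) is at chr8:71497765-71511752 on the minus strand. Emcn (ENSMUSG00000054690) is at chr3:137341067-137432185 and Ehd3 (ENSMUSG00000024065) at chr17:73804134-73832094, both on the plus strand. No member overlaps another gene on its own strand. Genes on the opposite strand overlap Cdh5 (Gm29682), Plvap (Gtpbp3), Selp (Gm16548 and Gm16587), Icam1 (Gm47079), and Vcam1 (Gm43109). The libraries kept strand, but its use in counting is not given in the sources used here, so reads of these pairs cannot be told apart.

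The promoters of 4 members are shown because 2 of them belong to the adhesion molecules with the largest changes, Icam1 and Selp, another to the second selectin, Sele, and the last to Kdr, which changed the opposite way. Each is the 250 bases before the RefSeq start site on GRCm38.p6, 5′ to 3′ on the gene's strand, and capitals mark matches to GGNNNTTCC on either strand, a form of the site that NF-kappaB factors are known to bind.
Icam1: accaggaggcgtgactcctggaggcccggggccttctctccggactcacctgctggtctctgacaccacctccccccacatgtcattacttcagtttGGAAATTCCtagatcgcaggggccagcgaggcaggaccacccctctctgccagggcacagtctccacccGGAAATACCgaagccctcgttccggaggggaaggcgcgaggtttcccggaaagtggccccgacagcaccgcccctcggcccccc
Selp: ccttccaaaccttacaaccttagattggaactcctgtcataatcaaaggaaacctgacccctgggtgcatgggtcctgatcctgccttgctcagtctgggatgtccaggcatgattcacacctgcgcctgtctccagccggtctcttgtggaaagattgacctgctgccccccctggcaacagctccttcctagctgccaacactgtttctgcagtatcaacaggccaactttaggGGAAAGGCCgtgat
Sele: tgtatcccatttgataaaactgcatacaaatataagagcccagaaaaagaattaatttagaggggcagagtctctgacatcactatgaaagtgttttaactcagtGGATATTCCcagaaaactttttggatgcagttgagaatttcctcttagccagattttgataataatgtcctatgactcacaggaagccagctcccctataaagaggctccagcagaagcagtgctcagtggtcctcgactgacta
Kdr: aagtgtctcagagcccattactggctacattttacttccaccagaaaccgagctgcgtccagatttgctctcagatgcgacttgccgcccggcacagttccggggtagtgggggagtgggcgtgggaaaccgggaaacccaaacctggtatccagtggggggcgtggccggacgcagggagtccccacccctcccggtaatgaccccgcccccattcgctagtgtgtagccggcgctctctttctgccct
The Icam1 window, at chr9:21015690-21015939, held 2 matches, GGAAATTCC at 153 to 145 bases before the start and GGAAATACC, which matches when read on the opposite strand, at 84 to 76 bases, and 1 of GGGCGG on the opposite strand at 17 to 12 bases. The Selp window, at chr1:164115014-164115263, held 1, GGAAAGGCC, which matches when read on the opposite strand, at 14 to 6 bases, and an AP-1 motif (TGATTCA) at 139 to 133 bases. The Sele window, at chr1:164047984-164048233, held GGATATTCC at 145 to 137 bases, with an AP-1 motif (TGACTCA) at 73 to 67 bases, an ETS motif (CAGGAAG) at 66 to 60 bases that adjoins it, and a TATAAA at 49 to 44 bases. The Kdr window, at chr5:75978456-75978705, held no match to GGNNNTTCC, 1 match to the longer kappaB decamer (GGGAGTCCCC), and 2 of GGGCGG on the opposite strand. The same windows of 32851 mouse genes held GGNNNTTCC in 15.7%, the kappaB decamer in 7.25%, TGANTCA in 6.75%, CAGGAAG in 10.8%, TATAAA in 12.4%, and GGGCGG in 32.7%. Of the 10 members, 6 had a promoter in the RefSeq table, and the other 2 of those 6, Emcn and Ehd3, held no match to GGNNNTTCC. Pecam1, Cdh5, Plvap, and Vcam1 are not shown.

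Levels between genes were compared per kilobase of exon. In vehicle kidneys Plvap, a protein of the diaphragms that span capillary fenestrae, was highest at 69.2 ± 8.35 CPM per kb (SD, n = 5). Pecam1 at 14.5 ± 0.83, Kdr at 13.3 ± 0.57, Emcn at 12.7 ± 1.19, and Cdh5 at 10.5 ± 1.16 CPM per kb followed, and the ranges between mice of Pecam1 and Kdr, Kdr and Emcn, and Emcn and Cdh5 overlapped, whereas Cdh5 lay above the next gene in every mouse. Ehd3, a trafficking protein enriched in glomerular endothelium, stood at 6.76 ± 0.95 CPM per kb and Icam1 at 5.91 ± 1.59, also overlapping. Vcam1 at 1.40 ± 0.27, Sele at 0.38 ± 0.27, and Selp at 0.14 ± 0.07 CPM per kb were lowest, and the ranges of both selectins overlapped. After cisplatin, Icam1 stood second at 20.1 ± 1.41 CPM per kb, overlapping Pecam1 at 18.2 ± 1.78, and Kdr had moved from the third place to the sixth at 9.002 ± 0.73 CPM per kb. In that group the ranges of Emcn and Cdh5 and of Cdh5 and Kdr overlapped, so the order of places 4 to 6 is not settled.

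**Figure D1:**
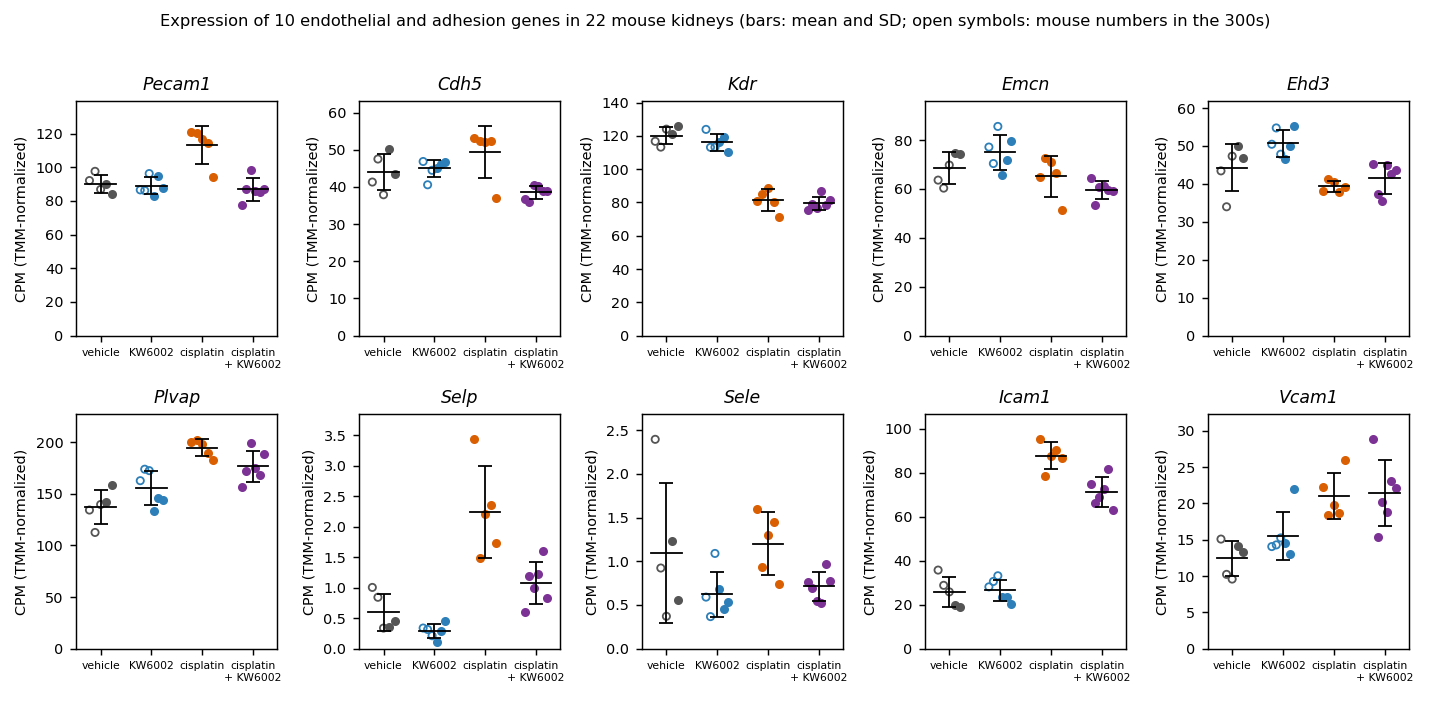
Normalized expression (CPM, linear axis from 0) of each of the 10 genes in every kidney, by treatment group; points are mice, open points are mice numbered in the 300s, and bars are the mean and SD. Icam1 stood at 78.3 to 95.2 CPM in the cisplatin group against 18.8 to 35.7 CPM in the vehicle group, and Kdr at 71.1 to 88.6 against 113 to 126 CPM.

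Cisplatin against vehicle asks how the drug alone altered these genes. Of the 4 adhesion molecules, Icam1, Selp, and Vcam1 rose and Sele did not pass the test. Of the 6 endothelial genes, Plvap and Pecam1 rose, Kdr fell, and Cdh5, Emcn, and Ehd3 did not pass. That makes 5 of 10 members higher and 1 lower, where 34.6% of all genes tested rose and 35.9% fell, 70.5% in all, and the members' count lies near that background. A stricter call, which asked for more than a change of 1 on the log2 scale at an adjusted p under 0.01, took Icam1 and Selp, both higher, where 12.1% of all genes passed it in each direction. The log2 fold changes of the members had a median of 0.25, beside -0.01 over all genes.

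Icam1, the ligand of the leukocyte integrins LFA-1 and Mac-1, was measured at 35.7, 28.8, 25.8, 19.8, and 18.8 CPM in the vehicle mice. In the cisplatin mice it reached 95.2, 78.3, 87.6, 90.3, and 86.7 CPM. The groups did not overlap, which held for 27.4% of all genes in the upward direction. The log2 fold change was 1.77 ± 0.14 (SE; adjusted p = 1.83e-10), a rise of 3.40-fold (95% interval 2.77 to 4.17). Among vehicle mice, the 3 numbered in the 300s were all above both numbered in the 500s, and against the latter alone the log2 fold change was 2.18 (adjusted p = 1.98e-11).

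Selp was scarce, with 10 to 31 counts per vehicle library and 59 to 129 per cisplatin library. Its values were 1.00, 0.84, 0.34, 0.35, and 0.46 CPM with vehicle and 3.44, 1.48, 2.21, 2.35, and 1.73 CPM with cisplatin. The groups did not overlap, although the highest cisplatin value lay well above the others of its group. P-selectin mRNA rose by 1.90 ± 0.32 on the log2 scale (adjusted p = 1.22e-05), or 3.74-fold (95% interval 2.38 to 5.90). Of 8 platelet markers, 2 had enough counts to be tested and neither passed. The glycoprotein markers Gp1ba, Gp1bb, Gp5, Gp6, and Gp9 stood at 0 to 0.253 CPM in every library. The summed platelet markers stood at 9.44 to 12.5 CPM with vehicle and 10.0 to 11.8 CPM with cisplatin. A single gene, Itga2b, made up 85.4% and 83.6% of the mean sum, and the part of platelets in the Selp reads was not tested.

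Vcam1, which binds the integrin VLA-4, gave 15.1, 10.2, 9.58, 14.1, and 13.2 CPM with vehicle and 22.3, 18.4, 19.9, 18.6, and 26.1 CPM with cisplatin, again without overlap. It rose by 0.76 ± 0.16 on the log2 scale (adjusted p = 2.44e-04), or 1.69-fold. Sele, the selectin made mainly by activated endothelium, stayed between 0.37 and 2.40 CPM with vehicle and between 0.74 and 1.60 CPM with cisplatin, and the highest value of all belonged to a vehicle mouse. Its difference of 0.13 ± 0.36 did not pass (adjusted p = 0.757), and the 95% interval was -0.61 to 0.87. With 1 library left out at a time, the difference ran from -0.09 to 0.65, and the adjusted p was never below 0.0780. It was negative without vehicle replicate 3 (-0.09) or 5 (-0.04), and it was -0.26 when scaled to other endothelial genes, which did not pass either.

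Kdr encodes VEGF receptor 2, the main signalling receptor for VEGF-A on endothelium, and was measured at 117, 113, 124, 121, and 126 CPM in the vehicle mice. In the cisplatin mice it stood at 81.1, 85.4, 88.6, 80.3, and 71.1 CPM. Every cisplatin value was below every vehicle value, a pattern shared by 27.9% of all genes in the downward direction. Kdr fell by 0.56 on the log2 scale (SE 0.05; adjusted p = 2.32e-09), to 0.676 of its vehicle level, and by 0.61 against the vehicle mice of the 500s.

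Plvap gave 134, 113, 139.8, 143, and 159 CPM with vehicle and 201, 202, 198, 189.5, and 183 CPM with cisplatin, with no overlap. The rise was 0.50 ± 0.08 on the log2 scale (adjusted p = 1.17e-05), or 1.42-fold, and it was 0.37 (adjusted p = 9.28e-04) against the vehicle mice of the 500s. Pecam1, a junctional molecule that leukocytes engage as they cross, stood at 92.1, 97.6, 86.9, 90.03, and 84.0 CPM with vehicle and 121, 120.4, 117, 114, and 94.0 CPM with cisplatin. Replicate 5 of the cisplatin group fell within the vehicle range, and the other 4 lay above it. The difference of 0.33 ± 0.07 passed (adjusted p = 1.44e-04), a rise of 1.26-fold.

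Cdh5, the adhesive protein of endothelial junctions, showed the same library apart: its cisplatin values were 53.1, 52.5, 52.0, 52.3, and 37.0 CPM, the last from replicate 5, against 37.9 to 50.2 CPM with vehicle. With all libraries the difference of 0.16 ± 0.08 did not pass (adjusted p = 0.0842), without that library it was 0.25 (adjusted p = 0.00139), and without vehicle replicate 4 it was 0.21 (adjusted p = 0.0308). Emcn, a sialomucin of capillaries and veins, was 68.6 ± 6.43 CPM with vehicle and 65.2 ± 8.40 CPM with cisplatin (SD, n = 5 each), and its difference of -0.07 did not pass (adjusted p = 0.459). Ehd3 was 44.3 ± 6.23 CPM against 39.4 ± 1.41 CPM, a difference of -0.17 that did not pass (adjusted p = 0.0736) but was -0.25 without vehicle replicate 2 (adjusted p = 0.00274) and -0.30 with the 500s alone (adjusted p = 0.00637). The differences of Emcn and Ehd3 turned to 0.15 and 0.05 with scaling by library size only.

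**Figure D2:**
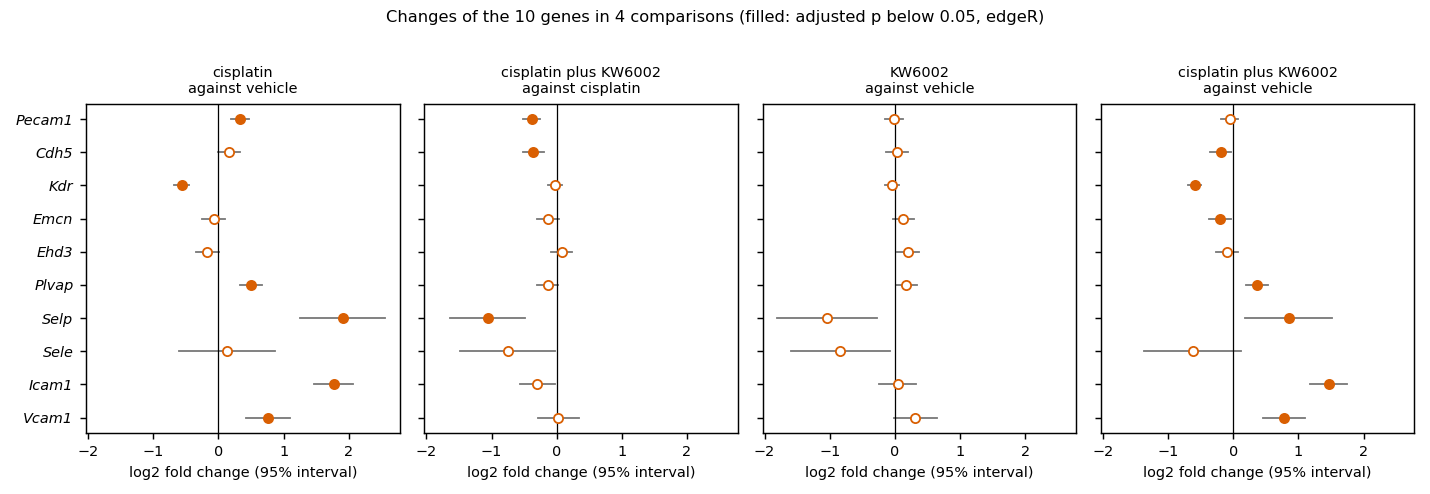
Log2 fold changes of the 10 genes with their 95% intervals in 4 comparisons; filled points passed an adjusted p below 0.05 in edgeR, open points did not. Icam1 at 1.77 and Selp at 1.90 stand far to the right for cisplatin against vehicle, and Kdr at -0.56 stands to the left of 0.

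Other vascular genes moved both ways. Of 27 further genes expressed throughout endothelium, 13 rose, 5 fell, and 9 did not pass, with a median of 0.26. The TGF-beta co-receptor Eng rose by 1.08 and the sphingosine phosphate receptor S1pr1 by 1.00, whereas Myct1 changed by -1.43 and Icam2, another integrin ligand of endothelium, by -0.67 on the log2 scale. Relative to the summed counts of those 27 genes, the drop of Kdr was -0.95 (adjusted p = 4.36e-12) and Icam1, Selp, and Vcam1 still rose by 1.38, 1.51, and 0.39, but Plvap no longer passed at 0.12, Pecam1 turned to -0.06, Cdh5 fell at -0.23 (adjusted p = 0.0118), and Emcn and Ehd3 fell at -0.46 and -0.54. That sum was 771 ± 25.9 CPM with vehicle and 1009 ± 94.1 CPM with cisplatin (SD, n = 5 each), and Eng was 14.7% of it with vehicle and 23.7% with cisplatin. With equal weight for each of the 27 genes, a scaling added after seeing the data, Pecam1 stayed higher at 0.15 (adjusted p = 0.0265) and Plvap at 0.33, and Cdh5 stood at -0.02 (adjusted p = 0.820).

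**Figure D3:**
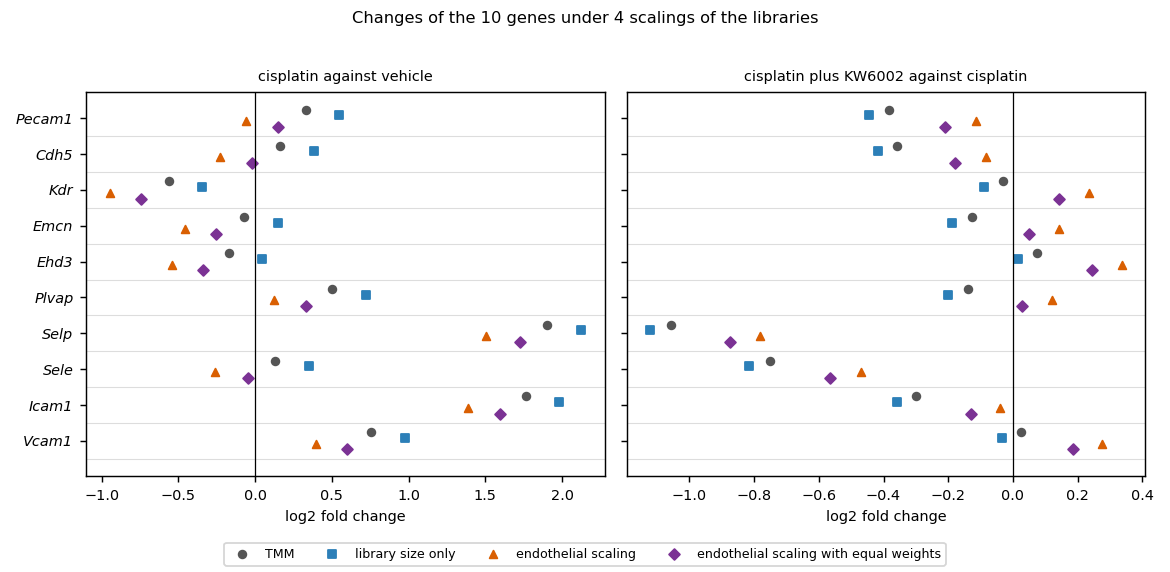
Log2 fold changes of the 10 genes under 4 scalings of the libraries: TMM, library size only, the summed counts of 27 other endothelial genes (endothelial scaling), and the same genes with equal weights. For cisplatin against vehicle, Icam1, Selp, and Vcam1 lie right of 0 and Kdr left of 0 under all 4, whereas the symbols of Pecam1, Cdh5, Emcn, Ehd3, and Sele fall on both sides of 0.

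Ligands and relatives of KDR were measured beside it. Of 11 VEGF and angiopoietin ligands and receptors, 3 rose, 5 fell, and 3 did not pass, with a median of -0.17. The ligand Vegfa, a product of podocytes and tubule cells, was lower at 159 CPM against 396 CPM (log2 fold change -1.32, adjusted p = 2.22e-13), and Vegfb was lower by -0.64. Flt1, the other main VEGF receptor of endothelium, went the opposite way from Kdr, from 109 to 210.3 CPM (log2 fold change 0.95, adjusted p = 9.31e-09), as did the co-receptor Nrp1 at 0.46. Angpt1, the activating ligand of the TIE2 receptor, fell at -0.73.

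The genes by which endothelium controls clotting and vessel tone rose most often: 10 of 12 rose, 0 fell, and the median was 1.33. They include the vasoconstrictor Edn1 at 2.67 and Vwf, stored with P-selectin in the same granules, at 2.23. Among 7 genes of glomerular endothelium, which Ehd3 also marks, 5 fell and 2 rose, with a median of -1.27. Among those with a mean log2 CPM not under 0, Lpl fell most, at -1.54, before Pi16, at -1.27, and Plat rose most, at 1.58, and Lpl and Plat are also made outside the glomerulus.

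The partners of the adhesion molecules moved both ways. Of 12 leukocyte ligands, 3 rose, 4 fell, and 5 did not pass, with a median of -0.19. Itgam, the alpha chain of Mac-1, which ICAM-1 binds, rose by 2.21, whereas Itga4, the alpha chain of VLA-4, which VCAM-1 binds, changed by -1.08. Cd44, a ligand of E-selectin on some leukocytes, rose by 1.59. Of 9 junctional and other adhesion molecules tested, 6 rose and 3 fell, led by Mcam at 0.97 and Jam3 at -0.86, with a median of 0.41. Of 8 tested enzymes that build or sulfate selectin ligands, 5 rose and 2 fell, and Gcnt1, abundant in vehicle kidney, changed most at -2.99.

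**Figure D4:**
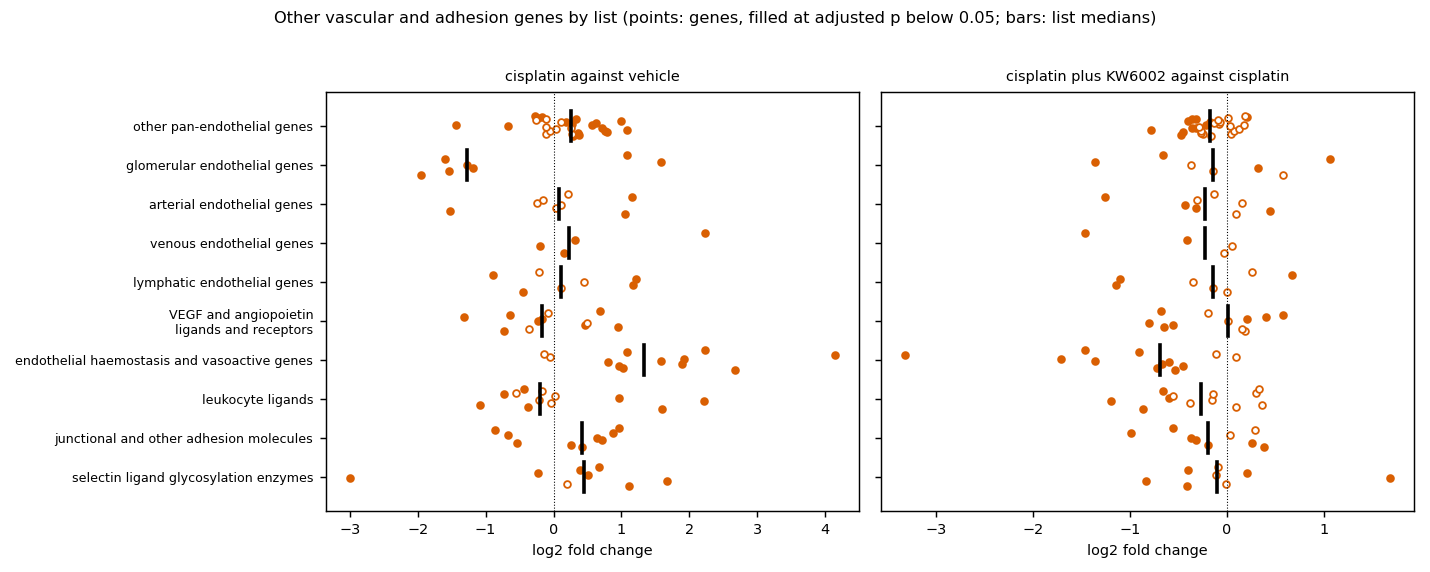
Log2 fold changes of other vascular and adhesion genes for cisplatin against vehicle (left) and co-treated against cisplatin (right); points are genes, filled at an adjusted p below 0.05, and bars are list medians. The clotting and vessel tone genes have a median of 1.33 on the left and -0.70 on the right, and the glomerular list a median of -1.27 on the left.

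Markers of other cell types moved in the same comparison. Of 5 injured tubule markers, 4 rose, and their sum was 45.7 to 90.4 CPM with vehicle and 1336 to 2475 CPM with cisplatin. Of 7 perivascular markers, 4 rose and 2 fell, with sums of 259 to 313 and 447 to 512 CPM. Of 10 leukocyte markers, 5 fell, among them Ptprc at -0.82 and Csf1r at -1.23, 2 rose, among them Cd68 at 1.68, and the sums of 156 to 345.99 and 166 to 219.6 CPM overlapped. The part of these cells in the changes of Icam1, Vcam1, and the other members was not tested.

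Co-treated against cisplatin asks what KW6002 changed in mice that received the platinum drug. Pecam1, Cdh5, and Selp fell, no member rose, and 7 did not pass, among them Icam1, Vcam1, and Kdr. Thus 3 of 10 members were lower, where 27.2% of all genes fell and 28.6% rose. The members had a median of -0.22, beside 0.01 over all genes. The groups of every member overlapped, where 19.3% of all genes were higher and 18.5% lower without overlap. The stricter call took 1 member, Selp, where 4.65% of all genes passed it upward and 5.66% downward.

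Pecam1 ran from 77.4 through a median of 86.5 to 98.5 CPM in the co-treated mice, against 94.0, 114, 117, 120.4, and 121 CPM with cisplatin. Of the cisplatin values only the lowest, from replicate 5, lay within the co-treated range. Pecam1 fell by 0.38 on the log2 scale (SE 0.06; adjusted p = 2.57e-05), to 0.767 of the cisplatin level. Cdh5 ran from 36.0 through 38.9 to 40.4 CPM when co-treated, below all cisplatin mice other than replicate 5, and fell by 0.36 (SE 0.08; adjusted p = 5.79e-04).

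Selp counts in the co-treated mice were 19 to 56 per library, and its level ran from 0.61 through 1.09 to 1.60 CPM. Only the highest co-treated mouse exceeded the lowest cisplatin mouse, at 1.48 CPM. Selp fell by 1.06 on the log2 scale (SE 0.28; adjusted p = 0.00253), to 0.481 of the cisplatin level. The fall of 0.75 in Sele, from 1.20 ± 0.36 (n = 5) to 0.71 ± 0.165 CPM (SD, n = 6), did not pass (adjusted p = 0.0714). It passed without vehicle replicate 1 (adjusted p = 0.0292), vehicle replicate 3 (0.0466), or cisplatin replicate 5 (0.0431), and when only these groups were fitted (0.0123).

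Icam1 ran from 63.0 through 70.9 to 81.5 CPM in the co-treated mice, against 78.3 to 95.2 CPM with cisplatin. The highest co-treated value was above the lowest cisplatin value, and the other 5 co-treated values were below all of them. The difference of -0.30 ± 0.13 missed the threshold (adjusted p = 0.0553; 95% interval -0.57 to -0.03), and it passed when only these 2 groups were fitted (adjusted p = 0.00174) or the number series was a covariate (adjusted p = 0.00194). Leaving out 1 library took it past the threshold in 7 of 22 cases, those of vehicle replicates 1, 4, and 5, KW6002 replicates 3 and 6, cisplatin replicate 2, and co-treated replicate 5, with adjusted p from 0.0278 to 0.0485. Vcam1, from 15.3 through 21.2 to 28.8 CPM, spread over more than the whole cisplatin range of 18.4 to 26.1 CPM, and its difference was 0.03 (95% interval -0.29 to 0.34; adjusted p = 0.899), or -0.03 with scaling by library size only.

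Kdr ran from 75.7 through 78.7 to 86.7 CPM in the co-treated mice, with a difference of -0.03 and a 95% interval of -0.13 to 0.08 (adjusted p = 0.644). This interval holds no change as large as the fall of 0.56 with cisplatin. Plvap, from 157 through 174 to 199 CPM, differed by -0.14 (adjusted p = 0.137). Emcn at 59.7 ± 3.64 CPM and Ehd3 at 41.5 ± 4.11 CPM (SD, n = 6) differed by -0.13 (adjusted p = 0.187) and 0.08 (adjusted p = 0.435). Without cisplatin replicate 5, Emcn differed by -0.20 (adjusted p = 0.0208). Relative to the 27 other endothelial genes, whose sum was 837 ± 28.2 CPM when co-treated, Pecam1 at -0.11 and Cdh5 at -0.08 no longer passed, Kdr and Ehd3 rose by 0.24 and 0.34, and Selp still fell by 0.78 (adjusted p = 0.0159). With equal weights for those genes, Pecam1 fell by 0.21 (adjusted p = 0.00273) and Cdh5 by 0.18 (adjusted p = 0.0337).

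Other vascular genes were also compared between co-treated and cisplatin mice. Of 27 further endothelial genes, 10 fell and 1 rose, with a median of -0.17, led by Eng at -0.78. Of the 12 clotting and vessel tone genes, 10 fell and 0 rose, with a median of -0.70, including Procr, the protein C receptor, at -1.72 and Vwf at -1.46. Of 7 glomerular endothelial genes, 2 rose and 2 fell. Of 11 VEGF and angiopoietin genes, 3 rose and 4 fell, with a median of 0.01. Vegfb rose by 0.58 and Vegfa by 0.40, while Flt1 fell to 134 CPM (-0.65) and Nrp1 changed by -0.56. Of 5 injured tubule markers, 4 fell and 0 rose, and of 7 perivascular markers, 3 fell and 1 rose. Of 10 leukocyte markers, 2 fell, 1 rose, and 7 did not pass, and Lyz2 made up 38.7% of their mean co-treated sum. Injured tubule markers summed to 373 to 782 CPM when co-treated, perivascular markers to 332 to 407 CPM, and leukocyte markers to 94.1 to 162 CPM, below the cisplatin range in each case. Proximal tubule markers went the other way, with 5 of 6 higher and 0 lower. Their sums were 1427 to 2651 CPM with cisplatin and 5318 to 8209 CPM when co-treated. Of the 12 leukocyte ligands, 4 fell, among them Itgam (-1.19), Cd44 (-0.87), and Selplg, the main P-selectin ligand (-0.66), and 0 rose. Fat markers also differed, with 4 of 6 lower and sums of 209.9 to 440.1 CPM with cisplatin and 6.56 to 266 CPM when co-treated, and with those markers as a covariate, an alternative added after seeing the data, Pecam1, Cdh5, and Selp still fell, by 0.37, 0.29, and 0.95, and Plvap fell by 0.27 (adjusted p = 0.0149).

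KW6002 against vehicle asks what the antagonist did in mice without cisplatin. No member passed in edgeR, where 0.0175% of all genes rose and 0.0% fell. Unadjusted p values below 0.05 were found for 4 members, Ehd3 at 0.20, Plvap at 0.18, Selp at -1.04, and Sele at -0.84, and for 1930 of all genes. DESeq2 passed 0 members, 46 genes upward, and 53 downward, and every member's groups overlapped, where 0.391% of all genes were higher and 0.992% lower without overlap. Selp had 3 to 12 counts per KW6002 library and ran from 0.11 through 0.30 to 0.46 CPM, so that its interval of -1.81 to -0.27 is wide.

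In the KW6002 group, the number series again separated some genes. The 3 KW6002 mice of the 300s stood at 28.1 to 33.1 CPM for Icam1 and the 3 of the 500s at 20.4 to 23.3 CPM, the same order as in the vehicle group. For Plvap the 300s stood at 163 to 174 CPM and the 500s at 134 to 146 CPM, while among vehicle mice the 300s, at 113 to 139.8 CPM, were below both of the 500s. With the 500s alone, the KW6002 difference of Plvap was -0.09 instead of 0.18.

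Co-treated against vehicle asks what remained changed under both drugs. Icam1, Vcam1, Plvap, and Selp were higher, and Kdr, Cdh5, and Emcn were lower. These are 4 and 3 of 10 members, where 29.8% of all genes rose and 29.9% fell, and the members' median was -0.07 beside -0.00. Icam1 (1.47 ± 0.14, adjusted p = 6.57e-09) and Vcam1 (0.78 ± 0.16, adjusted p = 1.77e-04) were above every vehicle mouse, as were 18.9% of all genes, and Kdr (-0.59 ± 0.05, adjusted p = 1.37e-09) was below, as were 18.5%. The stricter call took Icam1 alone, where 5.83% of all genes passed it upward and 7.59% downward. Plvap remained higher by 0.36 (adjusted p = 4.76e-04) and Selp by 0.85 (adjusted p = 0.0256), and both overlapped the vehicle group. Selp no longer passed without vehicle replicate 3, 4, or 5 or co-treated replicate 5 (0.70 to 0.76, adjusted p from 0.0622 to 0.0760), nor with the fat markers as a covariate (adjusted p = 0.0601). The falls of Cdh5 (-0.19, adjusted p = 0.0407) and Emcn (-0.20, adjusted p = 0.0384) lay close to the threshold and no longer passed with scaling by library size only, at -0.04 each. Leaving out 1 library also ended the call of Cdh5 in 7 of 22 cases (vehicle replicates 2, 4, and 5 and co-treated replicates 1, 2, 5, and 6, at -0.20 to -0.14) and that of Emcn in 6 (vehicle replicates 3, 4, and 5 and co-treated replicates 2, 5, and 6, at -0.20 to -0.17). Pecam1 differed by -0.05 (adjusted p = 0.494), or by 0.10 with scaling by library size only. Ehd3 at -0.09 (adjusted p = 0.320) and Sele at -0.62 (adjusted p = 0.141) did not pass with all libraries. Ehd3 passed without vehicle replicate 2 (-0.17, adjusted p = 0.0298) and Sele without vehicle replicate 3 (-0.84, adjusted p = 0.0368). With 1 library left out at a time, Sele ran from -0.84 to -0.10, with adjusted p up to 0.818.

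The test of whether the KW6002 effect differed with and without cisplatin passed for 3 members, all in the downward direction, where 19.9% of all genes passed downward and 22.8% upward (42.7% in all). The stricter call took 0 members, where 4.24% of all genes passed it upward and 4.33% downward. The 3 were Pecam1 (-0.37 ± 0.09, adjusted p = 0.00248), Cdh5 (-0.39 ± 0.11, adjusted p = 0.00846), and Plvap (-0.32 ± 0.11, adjusted p = 0.0262). For Pecam1, KW6002 changed the level by -0.02 without and -0.38 with cisplatin. For Selp it changed the level by -1.04 without cisplatin, which did not pass (adjusted p = 0.301), and by -1.06 with it. The Selp difference of -0.02 ± 0.47 did not pass (adjusted p = 0.991), so its fall was not shown to depend on cisplatin. The standard error is too wide to exclude a sizeable difference in either direction. The Plvap difference was -0.25 without vehicle replicate 2 (adjusted p = 0.0544) and -0.04 with the 500s alone (adjusted p = 0.788), and that of Cdh5 was -0.32 (adjusted p = 0.0841). Icam1, at -0.34 (adjusted p = 0.153), passed with the 500s alone at -0.51 (adjusted p = 0.00461) and without vehicle replicate 1 at -0.49 (adjusted p = 0.0243). Emcn, at -0.26 (adjusted p = 0.0737), passed without KW6002 replicate 4 (adjusted p = 0.0429) or cisplatin replicate 5 (adjusted p = 0.00904). Relative to the 27 other endothelial genes, none of the 3 passed, at 0.03, 0.02, and 0.08, and Kdr did, at 0.41 (adjusted p = 3.51e-04).

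Within groups, the members varied largely apart from one another. Deviations of log2 CPM from the group means over the 22 libraries gave correlations from -0.45 to 0.66 over the 45 pairs, with a median of 0.12. Of 4 pairs tested, the junctional genes Pecam1 and Cdh5 varied most alike (Pearson r = 0.66, permutation p = 0.0149, adjusted 0.0598; Spearman rho = 0.59, permutation p = 0.0140, adjusted 0.0560). The value fell to r = 0.44 without the 2 libraries farthest from the median. The vascular receptors and mucins Kdr and Emcn gave r = 0.53 (permutation p = 0.0419, adjusted 0.0839; rho = 0.41, permutation p = 0.0855), the selectins Selp and Sele r = 0.33 (permutation p = 0.228; rho = 0.23, permutation p = 0.371), and Icam1 and Vcam1 r = -0.07 (permutation p = 0.793; rho = -0.05, permutation p = 0.833). Without the 2 farthest libraries these were 0.24, 0.25, and -0.21. The gene whose deviations were most like those of Icam1, among 10430 considered, was Afap1 (r = 0.93), and for Vcam1 it was Fbln1 (0.87), for Plvap Fmnl3 (0.89), for Cdh5 Cd47 (0.86), for Selp 1700123O20Rik (0.86), for Emcn Plet1 (0.84), for Ehd3 Cyp51 (0.81), for Pecam1 Fam214b (0.80), for Sele Elf4 (0.78), and for Kdr Atp6v0a1 (0.75). These are descriptions over 22 libraries that share group sizes, number series, and scaling.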

How the data were processed

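Poly(A) RNA of 22 mouse kidneys was sequenced as stranded libraries. The authors mapped reads to mm10 with STAR, counted them per Ensembl gene with HTSeq 0.6.1p1, and deposited raw counts, whole numbers of reads per gene and library without normalization. A further 66 columns, unnamed and empty, were left out. Totals were 26471762 to 40510754. Selp and Sele, the members with the lowest levels, had the fewest counts and the widest intervals. Symbols and positions came from GENCODE M21 (32824 of 32858 genes matched) and promoters from RefSeq. Counts were filtered with filterByExpr (minimum count 10), scaled by TMM, and tested with edgeR 4.0.16 (R 4.3.3), quasi-likelihood F tests with 1 mean per group over all 22 libraries. In simulated counts for cisplatin against vehicle, 197 of 200 changed genes were recovered and 9 others were called among 16876 genes. Recovery with as many genes changed as in the data, where 70.5% passed in this comparison, was not tested. The recovered genes were not split by size of change or by level, so recovery of small changes or of scarce genes such as Selp and Sele is not given. The standard error is the unshrunken log2 fold change divided by the square root of F.

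The members and the 17 other lists were chosen with earlier results of these data known. All members are named. Of each list, up to 3 genes per direction with the largest change (adjusted p below 0.05, mean log2 CPM not under 0) are eligible for naming, and the report names those it needs. The gene most like each member was the first by Pearson correlation of deviations from the group means, among genes whose mean log2 CPM was not under 3. Correlations were tested by 100000 permutations within groups, two-sided. The labels number replicates within groups. They also give each library its own number, which was copied and taken here as a mouse number. No libraries were identical among 231 pairs. Alternatives were DESeq2 1.42.0, relative log expression factors, scaling by library size only, a filter that was dropped or that asked for 10 counts in each library, only the groups compared, a replicate block, the number series as covariate, mice of the 500s alone, scaling to the summed counts of 27 other endothelial genes, a stricter call (adjusted p below 0.01 and log2 fold change beyond 1), and each library left out. Results for the lists of lymphatic, arterial, venous, podocyte, and proximal tubule genes are given mainly in the closing section. Protein sequences were not used here. A gene that the naming rule would include is not reported here.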

Additional observations from a re-analysis of the deposited data

Results flagged for a closer look

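In 40 sets of values (10 genes in 4 groups), 3 held a library whose gap to the next value exceeded Dixon's 95% critical value, where chance gives about 2.0. Cisplatin replicate 5 was low for Pecam1, at 94.0 CPM with the next value at 114 CPM, and for Cdh5, at 37.0 CPM with the next at 52.0 CPM. KW6002 replicate 6 was high for Vcam1, at 22.04 CPM with the next at 15.3 CPM. The effect of KW6002 differed between mice with and without cisplatin for Pecam1 (-0.37), Cdh5 (-0.39), and Plvap (-0.32) on the log2 scale by edgeR's test of the difference.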

How the results depend on the processing

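With the main settings 6, 3, 0, 7, and 3 members passed in cisplatin against vehicle, co-treated against cisplatin, KW6002 against vehicle, co-treated against vehicle, and the difference in the KW6002 effect. The stricter call left 2, 1, 0, 1, and 0. In co-treated against cisplatin, 5 passed with library size only, with only the groups compared, with mice of the 500s, and with equal-weight endothelial scaling. In co-treated against vehicle, 4 passed with fat markers as covariate. In the difference of effects, 1 passed under either endothelial scaling. The fat covariate and the equal weights were chosen after seeing the data. Without 1 library at a time the counts were 6 to 7, 3 to 5, 0 to 0, 4 to 7, and 2 to 4. The labels do not say whether replicate numbers pair the mice. Of 31 same-numbered pairs, 7 correlated over 0.1, and 8 of 22 libraries were most like a library of their own number. Within a series, the median r was 0.018 for same-numbered pairs and 0.0037 for the others. No chance value was computed for these counts, so they cannot exclude pairing. With a replicate block, 6 members passed in co-treated against vehicle, Vcam1 turned to -0.044 in co-treated against cisplatin, and Selp to 0.000977 in the difference of effects. The causes of these shifts were not tested.

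Further sign changes, in log2 fold change, were these. Endothelial scaling gave Pecam1 -0.061, Cdh5 -0.23, and Sele -0.26 for cisplatin against vehicle, Kdr 0.24, Emcn 0.14, and Plvap 0.12 for co-treated against cisplatin, Cdh5 -0.10 and Icam1 -0.10 for KW6002 against vehicle, and, for the difference of effects, Pecam1 0.034, Cdh5 0.016, Emcn 0.14, Ehd3 0.27, Plvap 0.076, Selp 0.40, Icam1 0.064, and Vcam1 0.084. Equal weights gave Cdh5 -0.020 and Sele -0.044, then Kdr 0.14, Emcn 0.049, and Plvap 0.028, then Cdh5 -0.055 and Icam1 -0.049, and then Emcn 0.0053, Ehd3 0.13, and Selp 0.25 in the same order of comparisons. Library size only gave Emcn 0.15 and Ehd3 0.048 for cisplatin against vehicle, Vcam1 -0.034 for co-treated against cisplatin, Pecam1 0.10 and Ehd3 0.064 for co-treated against vehicle, and Kdr -0.053 for the difference of effects. Mice of the 500s gave Pecam1 0.024, Cdh5 -0.029, Emcn -0.042, and Plvap -0.093 for KW6002 against vehicle, and Ehd3 0.019 and Sele -0.076 for the difference of effects, where the fat covariate gave Selp 0.032. With 1 library left out, values spanned 0 for KW6002 against vehicle (Cdh5 -0.022 to 0.079, Icam1 -0.054 to 0.19, Pecam1 -0.041 to 0.014), cisplatin against vehicle (Emcn -0.12 to 0.0029, Sele -0.093 to 0.65), co-treated against cisplatin (Kdr -0.073 to 0.0035, Vcam1 -0.078 to 0.11), and the difference of effects (Kdr -0.024 to 0.053, Sele -0.44 to 0.32, Selp -0.30 to 0.19). Without mice of the 300s, the correlation of Pecam1 and Cdh5 was 0.81 (permutation, adjusted p = 0.0237) and that of Icam1 and Vcam1 0.091. Selp and Sele had the fewest counts, so smaller changes in them were not detectable at this depth.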

Other observations

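Genes of the other vessel beds were few and moved both ways with cisplatin. Of 8 arterial genes, Hey1, a target of Notch signalling, rose by 1.16 and Bmx by 1.05, the Notch ligand Dll4 fell at -1.52, and 5 did not pass, with a median of 0.08. Of 4 venous genes tested, Vwf (2.23), Nrp2 (0.31), and Ephb4 (0.15) rose and Nr2f2, which specifies venous identity, fell at -0.20. Of 7 lymphatic genes, Pdpn (1.22) and Lyve1 (1.17) rose, Prox1 (-0.89) and Ccl21a (-0.45, uncertain because near-identical copies exist) fell, and 3 did not pass. In co-treated against cisplatin mice, 1 arterial gene rose and 3 fell, 0 venous genes rose and 2 fell, and 1 lymphatic gene rose and 2 fell. Of 5 podocyte genes, 2 rose and 3 fell with cisplatin, and of 6 proximal tubule genes all 6 fell, with a median of -2.92. No gene of any list passed for KW6002 against vehicle.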
